A study of Mus musculus with 8 samples.

Results

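The 10 genes described here encode transcription factors of the epidermal lineage, namely Trp63, Klf4, Grhl3, Ovol1, Prdm1, Gata3, Dlx3, Myc, Zfp750 and Tfap2a. They were chosen by name and not by their levels, out of 26340 gene symbols with a locus of their own in the table of unperturbed samples, 46036 in the hair plucking table and 46048 in the wound table. All 10 had a row in the unperturbed table. After plucking and in wounds, 9 of the 10 had one, because Gata3 was listed there only as a joint locus with the neighbouring transcript 9230102O04Rik. That joint locus is described apart and is not counted among the members.

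The series compared the skin of C57BL/6 mice carrying JunB +/+ (wild type, WT) with that of JunB -/- animals (JunB cKO), in which Cre recombinase driven by the K14 promoter removed the floxed gene from basal epidermal progenitors and all cells derived from them. JunB is a member of the AP-1 family of transcription factors. The samples were unperturbed keratinocytes, skin biopsies taken 4 days after hair plucking, and skin biopsies taken 30 days after wounding, and the age of the animals is not given in the labels. The labels list 1 library per genotype for the unperturbed and plucked samples and 2 per genotype for the wounds, and the methods state that RNA of 3 samples was pooled for each group. The deposited tables hold 1 value per genotype and condition, also for the wounds, so these values show no spread between replicates, no test of the genotype was made from them and no call of significance is made for any gene below. The K14 promoter is not active in dermal, vascular and immune cells, and in whole skin fewer cells of a type and less RNA per cell cannot be told apart.

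The epidermis is renewed from basal progenitors, which leave the basement membrane, stop dividing and build the cornified barrier. The p63 protein, encoded by Trp63, maintains the basal progenitor state and the epithelial identity of these cells, with AP-2 factors such as that encoded by Tfap2a acting beside it, while Myc drives growth of progenitors and their exit from the stem cell compartment. Klf4, Grhl3, Zfp750, Dlx3, Ovol1, Prdm1 and Gata3 act mainly in suprabasal cells, where they switch on genes of the barrier and its lipids or restrain those of the basal state, and Prdm1 and Gata3 also act in the sebaceous gland and the hair follicle.

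AP-1 dimers prefer TGACTCA or TGAGTCA, searched here as TGANTCA with any base in the middle. The dimer of Myc and Max binds the E-box CACGTG. Promoters of the members were therefore read for TGANTCA and CACGTG, on both strands. RefSeq promoters on GRCm38.p6 matched 5 of the 10 members (Gata3, Grhl3, Klf4, Prdm1 and Tfap2a, the latter with 2), and the 250 bases before the start were searched. The letters TGANTCA stood in 1 of these 6 promoters, that of Prdm1, whereas 6.75% of 32851 promoters of the same length hold them. The Prdm1 match is TGAATCA, with A and not C or G in the middle. The related letters TGACGTCA stood in 0 of 6 and in 1.55% of all promoters. The E-box stood in 1 of 6, that of Klf4, and in 6.02% of all promoters. Both promoters are shown because they hold the only matches. The capitals mark the match, which lies 48 to 42 bases before the start in Prdm1 (chr10:44458749-44458998, minus strand) and 182 to 177 bases before it in Klf4 (chr4:55532476-55532725, minus strand).
Prdm1: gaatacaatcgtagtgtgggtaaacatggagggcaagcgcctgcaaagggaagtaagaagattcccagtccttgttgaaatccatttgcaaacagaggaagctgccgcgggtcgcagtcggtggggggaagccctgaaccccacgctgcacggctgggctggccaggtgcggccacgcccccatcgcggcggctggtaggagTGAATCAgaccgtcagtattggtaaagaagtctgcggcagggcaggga
Klf4: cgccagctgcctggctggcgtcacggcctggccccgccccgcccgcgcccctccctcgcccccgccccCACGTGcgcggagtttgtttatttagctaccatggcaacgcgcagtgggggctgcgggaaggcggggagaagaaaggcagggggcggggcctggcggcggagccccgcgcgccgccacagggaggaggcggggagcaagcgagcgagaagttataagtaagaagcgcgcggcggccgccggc
A match describes the letters of the window and not a site of binding.

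The Junb gene itself followed the genotype labels. Its level was 268 FPKM (fragments per kilobase of transcript, scaled by the mapped reads) in unperturbed WT against 31.4 FPKM in cKO, 40.8 against 11.7 FPKM after plucking and 33.4 against 15.4 FPKM in wounds, or 8.49-fold, 3.46-fold and 2.16-fold lower in cKO. Keratinocyte markers were abundant in every column, with summed levels of 4957 to 13941 FPKM over 8 genes, and none of the 8 was listed at 0. The 6 fibroblast markers summed to 13.7 FPKM in unperturbed WT and 12.5 FPKM in cKO, against 5109 and 1856 FPKM after plucking and 10532 and 13412 FPKM in wounds. The plucked and wound samples thus held dermal RNA, although the labels give keratinocyte as the tissue of the plucked samples. The unperturbed cKO library was the shallowest, with an estimated 3.92 reads per FPKM and kilobase against 13.2 in its WT, 12.8 and 10.1 in plucked WT and cKO, and 34.3 and 31.3 in wound WT and cKO. It also carried a low level over genes that keratinocytes do not use. Of 1061 short sensory receptor loci, 898 lay above 0 in unperturbed cKO, with a median of 0.546 FPKM, against 39 in WT.

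The levels of the members are shown in the plot of FPKM values by genotype. FPKM is scaled by transcript length, so levels can be compared between genes. In unperturbed WT the members ranged from 4.32 FPKM for Prdm1 to 219 FPKM for Klf4, with a median of 63.3 FPKM, and in cKO from 7.39 FPKM for the same gene to 173 FPKM for Klf4, with a median of 60.7 FPKM. Klf4, Trp63, Gata3, Zfp750 and Myc were the 5 highest members in both genotypes, in that order. After plucking and in wounds Trp63 took the first place in both genotypes, and Klf4 and the joint Gata3 locus the next places. The tables were normalized separately, so levels are given side by side and no fold is drawn between conditions.

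**Figure D1:**
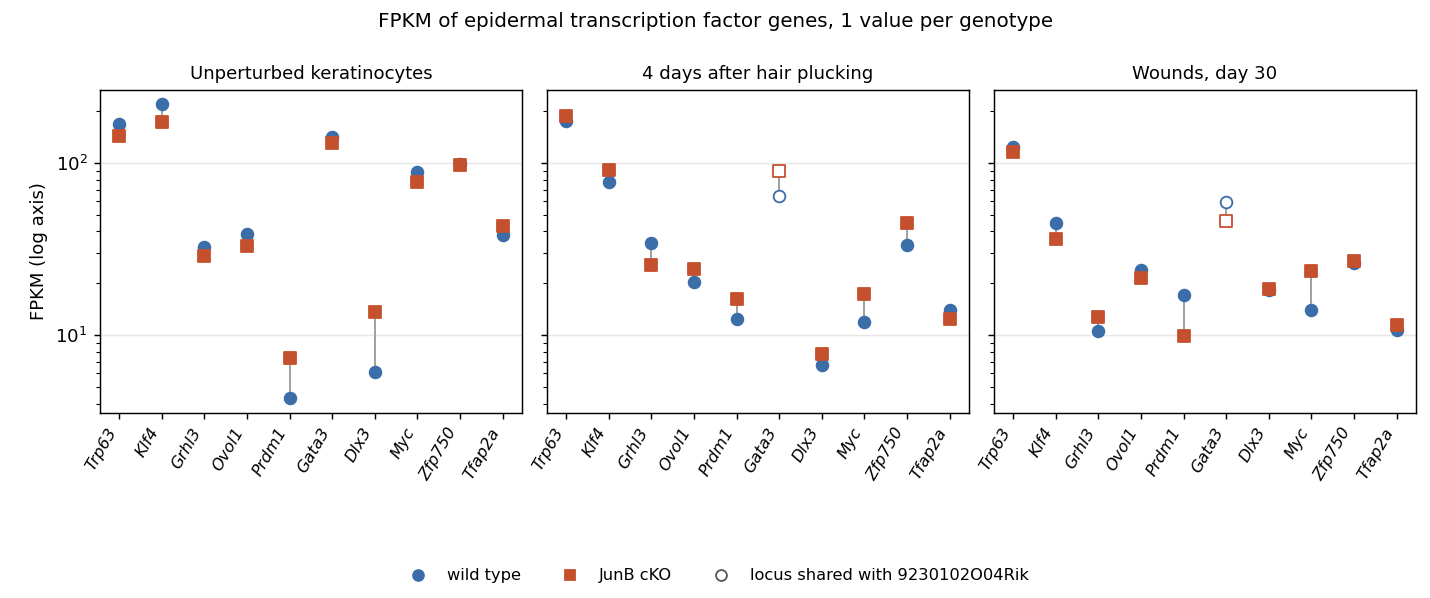
FPKM on a log axis for each of the 10 genes in the 3 conditions, with 1 point per genotype (circles WT, squares JunB cKO) and no error bars, since each table holds 1 value per genotype. Open symbols are the Gata3 locus shared with 9230102O04Rik; most pairs lie close together, and the widest gaps are those of Dlx3 and Prdm1 in unperturbed keratinocytes and of Prdm1 and Myc in wounds.

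In unperturbed keratinocytes 7 of the 10 members were lower and 3 higher in JunB cKO. The median of the log2 ratios was -0.14, with a range from -0.34 to 1.15. Ratios are log2 of cKO over WT after adding 0.1 FPKM to each. One member, Dlx3, was higher by more than 2-fold and 0 were lower by 2-fold. Of all 15883 genes with at least 1 FPKM in either genotype, 22.1% stood higher in cKO by 2-fold or more and 2.35% stood lower by as much. The large share of higher genes lies among low levels, where the cKO column carries the low level described above, and it was 1.67% among the 6343 genes with at least 10 FPKM. At that minimum 21.3% of all genes were higher in cKO by any amount, and 47.2% at a minimum of 1 FPKM. The median log2 ratio of all genes with at least 10 FPKM was -0.24, so the small negative ratios of most members lie close to the median of all genes. Their signs depend on the scaling. Centred on the median of epithelial structural genes, which was -0.28, the ratios of Trp63, Grhl3, Ovol1, Gata3, Myc and Zfp750 turned positive, whereas Klf4 stayed below 0 and Dlx3, Prdm1 and Tfap2a above it. At a limit of 1.5-fold, Dlx3 and Prdm1 were higher and 0 members lower. Of the 9 members with at least 10 FPKM, which leaves out Prdm1, 1 was higher by that much, and of all genes at that minimum 3.29% were higher and 11.1% lower.

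After hair plucking 7 of 9 members were higher and 2 lower in cKO, with a median log2 ratio of 0.23 and a range from -0.42 to 0.54, and 0 of 9 passed 1.5-fold in either direction. By any amount, 51.2% of all genes with at least 1 FPKM were higher in cKO. All genes spread much wider in this comparison than the members. At 2-fold 21.0% of 16221 genes with at least 1 FPKM were higher and 18.7% lower, and at 1.5-fold 23.6% of 8553 genes with at least 10 FPKM were higher and 22.8% lower. Markers of other cell types moved with genotype as well. All 6 fibroblast and all 6 myeloid markers were lower in cKO, the myeloid ones summing to 233 FPKM in WT and 81.6 FPKM in cKO with none at 0, whereas the keratinocyte markers summed to 10489 and 11560 FPKM, with 4 of 8 higher. The part of cell mixture in the member ratios was not tested.

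In wounds 5 of 9 members were higher and 4 lower in cKO, with a median log2 ratio of 0.02 and a range from -0.78 to 0.76. By any amount, 51.4% of all genes with at least 1 FPKM were higher. No member passed 2-fold, against 9.08% higher and 7.67% lower of 17346 genes with at least 1 FPKM. At a minimum of 10 FPKM these shares were 4.46% and 3.63%. Myc was higher and Prdm1 lower by at least 1.5-fold, against 10.3% higher and 8.86% lower of 8456 genes with at least 10 FPKM. All 6 sebocyte markers were higher in cKO, with sums of 517 FPKM in WT and 1174 FPKM in cKO. Most of this was Scd1, at 390 and 1009 FPKM, whereas Mc5r was at 5.51 and 5.92 FPKM. Of 5 adipocyte markers 4 were also higher, with sums of 707 and 824 FPKM. In unperturbed and plucked samples all 6 sebocyte markers were lower in cKO, with sums of 455 and 251 FPKM and of 1098 and 737 FPKM. After plucking Mc5r, at 3.95 and 3.88 FPKM, and Awat2, at 6.40 and 5.91 FPKM, were lower by little. In wounds melanocyte markers summed to 226 and 117 FPKM, with 5 of 5 lower.

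**Figure D2:**
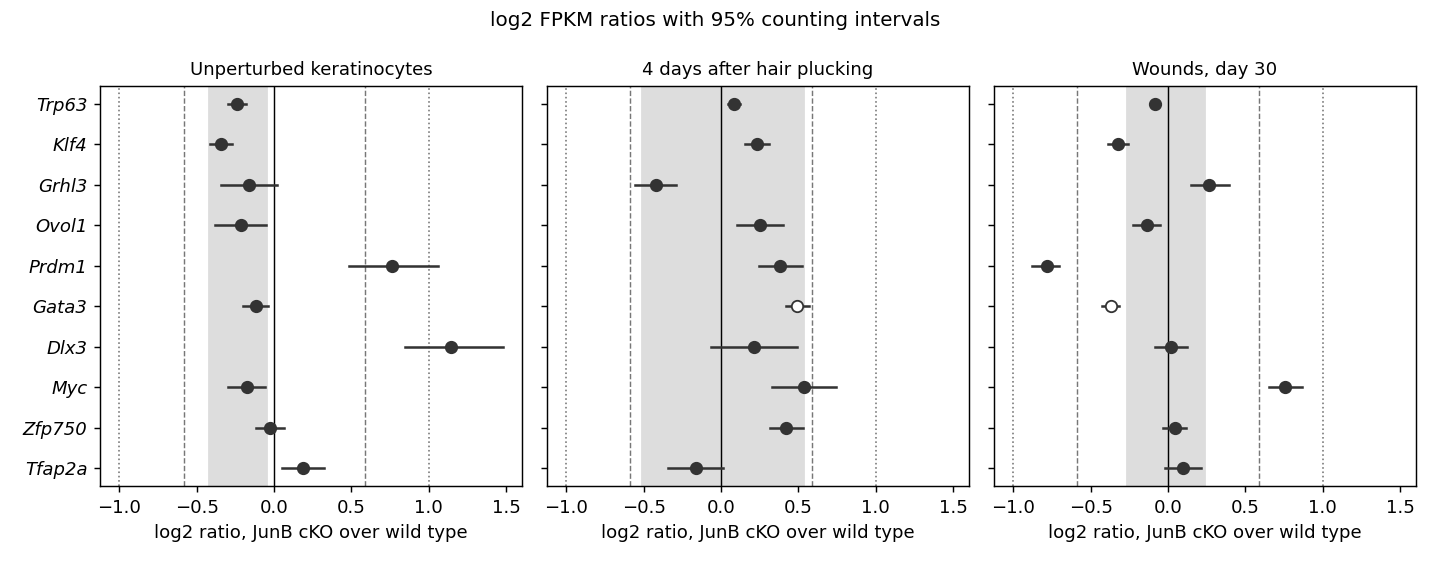
log2 FPKM ratio of JunB cKO over WT for each gene in the 3 conditions, with lines for the approximate 95% counting interval, which covers counting of reads only and neither animals nor pooling. The grey band runs from the lower to the upper quartile of all genes with at least 10 FPKM, dashed lines mark 1.5-fold and dotted lines 2-fold, and open symbols are the joint Gata3 locus; Dlx3 and Prdm1 in unperturbed keratinocytes and Prdm1 and Myc in wounds lie beyond 1.5-fold.

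Of the 3 members of the basal state and growth, Trp63 was the highest in every column. It lies on chromosome 16 (25683763 to 25892102 of GRCm38, plus strand). It was at 169 FPKM in unperturbed WT and 143 FPKM in cKO, at 176 and 187 FPKM after plucking and at 123 and 116 FPKM in wounds. The log2 ratios were -0.24, 0.08 and -0.08, so that WT and cKO differed by at most 1.18-fold. With an estimated 3013 to 22677 reads per value, counting error was small. The paralog Trp53, which encodes the p53 tumour suppressor, had log2 ratios of 0.14, 0.29 and 0.50 in the same order.

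Tfap2a (chromosome 13, 40715302 to 40738376, minus strand) stood at 38.0 FPKM in unperturbed WT and 43.3 FPKM in cKO, at 13.9 and 12.4 FPKM after plucking and at 10.7 and 11.4 FPKM in wounds. The log2 ratios were 0.19, -0.16 and 0.10, and the counting intervals after plucking (-0.34 to 0.01) and in wounds (-0.02 to 0.21) held 0. Its paralog Tfap2c, which also acts in basal keratinocytes, was at -0.16, 0.12 and 0.09. Tfap2b departed from both after plucking, with 6.13 FPKM in WT and 20.8 FPKM in cKO, a log2 ratio of 1.74, and was at 0.11 in unperturbed cells and -0.33 in wounds.

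Myc (chromosome 15, 61985391 to 61990374, plus strand) was the factor of growth and of progenitor exit with the widest differences. Its level was 88.1 FPKM in unperturbed WT and 78.0 FPKM in cKO, 11.9 and 17.3 FPKM after plucking, and 14.0 and 23.7 FPKM in wounds. The cKO value was thus below WT in unperturbed cells as deposited (log2 ratio -0.18, counting interval -0.30 to -0.06) and above it after plucking (0.54, 0.33 to 0.75) and in wounds (0.76, 0.65 to 0.87). In wounds this was 1.69-fold, from an estimated 1126 reads in WT and 1735 in cKO. The family member Mycl, found under that symbol only in the plucking and wound tables, was at 18.4 and 27.9 FPKM and at 24.1 and 20.3 FPKM, log2 ratios of 0.60 and -0.25. Older symbols of this gene were not searched. Mycn was listed at 0 in plucked WT and at 2.84 FPKM in cKO, and stood at 4.05 and 1.77 FPKM in wounds.

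Among the factors of differentiation, Klf4, which is needed for the skin barrier, was the highest in unperturbed samples. Klf4 (chromosome 4, 55527143 to 55532466, minus strand) stood at 219 FPKM in unperturbed WT and 173 FPKM in cKO, at 77.1 and 90.5 FPKM after plucking and at 45.1 and 36.0 FPKM in wounds. The log2 ratios were -0.34, 0.23 and -0.32, each below 1.5-fold. Klf5, the relative that marks proliferating basal cells, gave 0.03, 0.16 and -0.08. Of the Klf genes with at least 1 FPKM, Klf11 after plucking had the lowest log2 ratio, -2.13, with 30.0 FPKM in WT and 6.81 FPKM in cKO.

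Grhl3 (chromosome 4, 135541888 to 135573630, minus strand) encodes a grainyhead-like factor of barrier formation and wound closure. It stood at 32.4 FPKM in unperturbed WT and 29.0 FPKM in cKO, at 34.5 and 25.7 FPKM after plucking and at 10.6 and 12.8 FPKM in wounds. The log2 ratio after plucking was -0.42 (counting interval -0.56 to -0.29), the lowest of the 9 members there, and 0.27 in wounds. In unperturbed cells it was -0.16, with an interval of -0.34 to 0.02 that held 0. Its relatives Grhl1 and Grhl2, which act on overlapping junction genes, were at 0.16 and -0.25 after plucking and at -0.02 and -0.14 in wounds. All 3 members of the family stayed below 1.5-fold in every comparison.

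Ovol1, a repressor that helps keratinocytes leave the cycle, lies on chromosome 19 (5549136 to 5560646, minus strand). It stood at 38.5 FPKM in unperturbed WT and 33.1 FPKM in cKO, at 20.3 and 24.2 FPKM after plucking and at 23.8 and 21.6 FPKM in wounds, log2 ratios of -0.22, 0.25 and -0.14. Its relative Ovol2 was at 5.31 FPKM in unperturbed WT and 3.55 FPKM in cKO, a log2 ratio of -0.57.

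Zfp750 (chromosome 11, 121510978 to 121519333, minus strand) encodes a zinc finger factor downstream of p63 that raises late differentiation genes. It stood at 98.8 FPKM in unperturbed WT and 97.1 FPKM in cKO, at 33.3 and 44.6 FPKM after plucking and at 26.3 and 27.1 FPKM in wounds. The log2 ratio after plucking was 0.42 (counting interval 0.31 to 0.53), whereas the intervals in unperturbed cells (-0.12 to 0.07) and wounds (-0.03 to 0.12) held 0. The gene lies inside Tbcd on the opposite strand, and whether reads were counted by strand is not given in the sources used here. After plucking Tbcd was at 35.4 FPKM in WT and 21.3 FPKM in cKO, a log2 ratio of -0.73. B3gntl1, listed at the same locus, was at 5.78 and 7.43 FPKM, a log2 ratio of 0.36. The part of these neighbours in the Zfp750 values was not tested.

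Dlx3 (chromosome 11, 95120119 to 95125296, plus strand), a homeobox factor of suprabasal keratinocytes and of the hair follicle, was the one member past 2-fold. In unperturbed WT it stood at 6.12 FPKM and in cKO at 13.7 FPKM, 2.21-fold higher. The log2 ratio was 1.15 with a counting interval of 0.84 to 1.48, from an estimated 211 reads in WT and 140 in cKO, the fewest of any member value. Of the 5309 genes with 5 to 20 FPKM in the higher genotype, a band chosen after the values were seen, 1.92% were at least 2-fold higher in cKO. After subtraction of each column's receptor gene median, Dlx3 had a log2 ratio of 1.09. After plucking Dlx3 stood at 6.72 FPKM in WT and 7.81 FPKM in cKO (0.21, interval -0.07 to 0.49), and in wounds at 18.3 and 18.6 FPKM (0.02, interval -0.08 to 0.12). The paralog Dlx5 was at 4.74 FPKM in unperturbed WT and 7.68 FPKM in cKO, a log2 ratio of 0.68. Dlx2 and Dlx6 were also higher there, at 0.312 FPKM in WT and 1.94 FPKM in cKO and at 0.0680 and 2.07 FPKM, and the part of the low level carried by that library in these values was not tested.

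Prdm1 (chromosome 10, 44437177 to 44528501, minus strand), whose product Blimp1 is a repressor of upper epidermal layers, of the sebaceous gland and of plasma cells, had the widest span of ratios. It stood at 4.32 FPKM in unperturbed WT and 7.39 FPKM in cKO, at 12.4 and 16.2 FPKM after plucking, and at 17.1 and 9.90 FPKM in wounds. The cKO value was above WT in unperturbed cells (log2 ratio 0.76, counting interval 0.48 to 1.06) and after plucking (0.38, 0.24 to 0.52) and below it in wounds (-0.78, -0.88 to -0.70). The unperturbed value rests on an estimated 302 reads in WT and 153 in cKO, and 4.11% of the genes with 5 to 20 FPKM were at least 1.5-fold higher there. In wounds it was 1.72-fold lower, from an estimated 3106 and 1635 reads. Of the 5 members with a promoter to read, Prdm1 is the one whose promoter, printed above, matches TGANTCA. The letters there are TGAATCA, with A and not C or G in the middle. That window (44458749 to 44458998) belongs to a start within the gene span given here and not to its upstream end. A link between these letters and the Prdm1 ratios was not tested.

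Cells other than keratinocytes use Prdm1, so their markers are given beside it. In unperturbed samples the 4 plasma cell markers listed there summed to 390 FPKM in WT and 295 FPKM in cKO, nearly all of it from Sdc1 and Xbp1, which keratinocytes and secretory cells also express. Tnfrsf17, which is more particular to plasma cells, was listed at 0 in unperturbed WT and at 1.31 FPKM in cKO. In that cKO library sensory receptor genes had a median of 0.546 FPKM, and the part of this low level in the Tnfrsf17 value was not tested. In wounds the 5 markers summed to 199 FPKM in WT and 203 FPKM in cKO, Jchain was at 3.98 FPKM in WT and 13.2 FPKM in cKO, and Tnfrsf17 was at 0.464 FPKM in WT and listed at 0 in cKO. The myeloid sums in wounds were 412 and 420.5 FPKM. The T lymphocyte markers summed to 21.3 and 28.7 FPKM, with 4 of 6 expressed markers higher in cKO. The sebocyte markers, given above with sums mostly from Scd1, were lower in cKO in unperturbed and plucked samples, where Prdm1 was higher. In wounds, where Prdm1 was lower, these markers were higher. The part of these cell types in the Prdm1 values was not tested.

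Gata3 (chromosome 2, 9857078 to 9890034, minus strand), a factor of barrier lipids and of the inner root sheath that also specifies T helper and innate lymphoid cells, stood at 142 FPKM in unperturbed WT and 131 FPKM in cKO, a log2 ratio of -0.12. There the neighbouring 9230102O04Rik had a row of its own, at 3.09 and 2.77 FPKM. The joint locus was at 64.0 FPKM in WT and 90.1 FPKM in cKO after plucking (log2 ratio 0.49) and at 59.6 and 46.1 FPKM in wounds (-0.37), and the share of each gene in it cannot be told apart. T lymphocyte markers summed to 52.9 FPKM in plucked WT and 30.9 FPKM in cKO, most of it Cd3g at 39.6 and 20.6 FPKM. Of 5 expressed markers 2 were higher in cKO and 3 lower. Cd3d and Lck were listed at 0 in both genotypes and Cd4 and Cd8a at 0 in cKO. The part of T lymphocytes in the joint locus was not tested. In unperturbed samples the T lymphocyte markers summed to 13.5 FPKM in WT and 17.7 FPKM in cKO, whose library carried the low level described above.

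Levels relative to Trp63 within a column do not depend on the scaling of that column. Klf4 stood at 1.30 times Trp63 in unperturbed WT and 1.21 times in cKO, at 0.437 and 0.484 times after plucking and at 0.366 and 0.310 times in wounds. Myc was at 0.523 and 0.545 times Trp63 in unperturbed WT and cKO, at 0.0675 and 0.0926 times after plucking, and at 0.114 and 0.204 times in wounds. Prdm1 went from 0.0256 to 0.0516 times Trp63 in unperturbed samples, from 0.0706 to 0.0869 times after plucking and from 0.139 to 0.0852 times in wounds. The ratio of Myc to Prdm1 was 20.4 in unperturbed WT and 10.6 in cKO, 0.957 and 1.07 after plucking, and 0.819 and 2.40 in wounds. Prdm1 thus stood above Myc in WT and below it in cKO in both plucked and wound samples, by little after plucking.

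**Figure D3:**
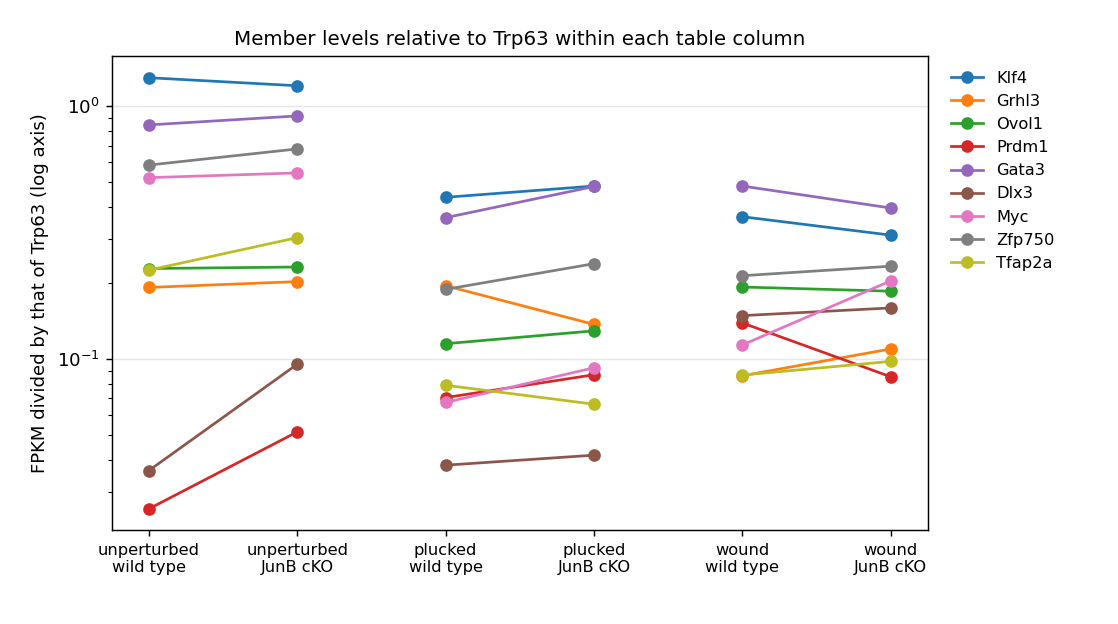
FPKM of each gene divided by that of Trp63 in the same column, on a log axis, with a line joining WT and JunB cKO of a condition (no error bars, 1 value per column). For plucked and wound samples Gata3 is the joint locus; the lines of Myc and Prdm1 cross after plucking and in wounds, and those of Dlx3 and Prdm1 slope up most in unperturbed samples.

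The genes that these factors are known to act on were described by lists, read beside the median of all genes with at least 1 FPKM, which was -0.04 in unperturbed samples, 0.03 after plucking and 0.02 in wounds. The lists were drawn up by general knowledge of the epidermis, and no test was made of them. Of all genes with at least 1 FPKM, 22.1% were at least 2-fold higher and 2.35% lower in unperturbed cKO. The shares were 21.0% and 18.7% after plucking and 9.08% and 7.67% in wounds. By any amount, 47.2% were higher in unperturbed cKO, 51.2% after plucking and 51.4% in wounds. At a minimum of 10 FPKM the unperturbed share was 21.3%. Basal layer genes downstream of p63 were lower in unperturbed cKO in 16 of 18 genes, with a median log2 ratio of -0.30, close to the -0.24 of all genes with at least 10 FPKM. After plucking 12 of 17 were higher, with a median of 0.26. At least 2-fold higher were 4 of 17, beside 21.0% of all genes with at least 1 FPKM and 13.7% of those with at least 10 FPKM. Among the 4, the integrin Itga3 was at 18.1 FPKM in WT and 45.6 FPKM in cKO and the integrin Itgb4 at 27.8 and 58.7 FPKM. In wounds 7 of 17 were higher, the median was -0.02 and 0 passed 2-fold.

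Early differentiation genes had medians of -0.31, 0.20 and -0.15 in the same order, with 0 of 12 past 2-fold in each comparison. In unperturbed samples the median of all genes with at least 10 FPKM was -0.24. Terminal differentiation genes downstream of Klf4, Grhl3 and Zfp750 had medians of 0.17, 0.32 and -0.21. In unperturbed samples 4 of 23 were at least 2-fold higher in cKO and 1 was lower. Of all genes 22.1% were higher by as much, and 1.67% of those with at least 10 FPKM. The cornified envelope genes Lor and Cnfn stood at 47.0 FPKM in WT and 213 FPKM in cKO and at 65.3 and 177 FPKM, and Flg, the filaggrin gene, at 11.3 and 46.1 FPKM, whereas Sprr1b stood at 33.8 and 13.0 FPKM. After plucking Cnfn was at 3.61 and 41.3 FPKM and Sprr1a at 258 and 113 FPKM. In wounds 17 of 24 were lower in cKO, where 51.4% of all genes with at least 1 FPKM were higher. Among the lower ones were the transglutaminase Tgm3, at 33.3 and 12.7 FPKM, and the envelope precursor Ivl, at 139 and 65.7 FPKM.

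Growth genes downstream of Myc had a median of 0.06 in unperturbed samples, 0.47 after plucking and 0.08 in wounds, with 11 of 19, 16 of 20 and 10 of 19 genes higher in cKO. Of all genes with at least 1 FPKM, 47.2%, 51.2% and 51.4% were higher in the same order. The nucleolar gene Nop56 stood at 139 FPKM in plucked WT and 406 FPKM in cKO, and at 152 and 454 FPKM in wounds, log2 ratios of 1.55 and 1.58. Other members of the list ran the opposite way, such as nucleolin (Ncl) after plucking, at 462 and 176 FPKM, and the cyclin Ccnd2 in wounds, at 150 and 46.7 FPKM. Some levels of the list stood far apart between conditions. Eif4a1 in WT was at 25.2 FPKM in unperturbed, 10618 FPKM in plucked and 14224 FPKM in wound samples, and Ncl was at 17.3 FPKM in unperturbed WT. Which transcripts of these loci gave the reads was not tested. In wounds, where Myc was 1.69-fold higher in cKO, 1 of 19 growth genes was at least 2-fold higher and 2 were at least 2-fold lower. The shares of all genes there were 9.08% and 7.67%.

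Among other epidermal factors, basal progenitor factors and their partners had medians of -0.03, 0.12 and 0.08, and differentiation factors 0.01, -0.13 and 0.03, beside -0.14, 0.23 and 0.02 for the members. After plucking 3 of 17 basal factors were at least 2-fold higher in cKO and 2 lower, beside 21.0% and 18.7% of all genes. Lhx2, a factor of hair follicle stem cells, stood at 12.4 FPKM in WT and 40.8 FPKM in cKO, whereas Tcf7l1, which acts in the same cells, stood at 14.0 and 1.94 FPKM and Runx1 at 40.1 and 16.0 FPKM. Of the differentiation factors 4 of 29 were at least 2-fold higher and 3 lower after plucking, beside the same shares of all genes. The lower ones were Rbpj, the effector of Notch, at 23.2 and 8.77 FPKM, Pparg at 34.8 and 15.7 FPKM and Mxd1, an antagonist of Myc, at 56.6 and 26.5 FPKM. Among the higher ones were Dlx5 and Elf3, listed at 0 in WT and at 2.76 and 1.37 FPKM in cKO, and Dlx2, at 0.351 and 1.43 FPKM. In wounds 0 of 31 were at least 2-fold higher and 1, Dlx2, was lower.

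Hair follicle factors had medians of 0.23, 0.46 and -0.12. After plucking 4 of 12 were at least 2-fold higher in cKO and 2 lower, beside 21.0% and 18.7% of all genes. Lef1, the Wnt effector of hair matrix cells, stood at 1.46 FPKM in WT and 6.94 FPKM in cKO, Foxn1 at 0.0814 and 2.11 FPKM and Tbx18, a factor of the dermal papilla, at 0.246 and 4.90 FPKM, all of them low levels. The lower ones were Foxq1, at 3.37 and 0.167 FPKM, and Msx1, at 1.17 FPKM in WT and listed at 0 in cKO. In unperturbed samples 4 of 12 were at least 2-fold higher in cKO and 0 lower, among them Foxe1 at 0.194 and 3.51 FPKM, Msx1 at 0.167 and 1.65 FPKM, and Sox18, listed at 0 in WT and at 1.84 FPKM in cKO. Of all genes with 1 to below 10 FPKM in the higher genotype, a range chosen after the values were seen, 35.7% were higher there by 2-fold or more.

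**Figure D4:**
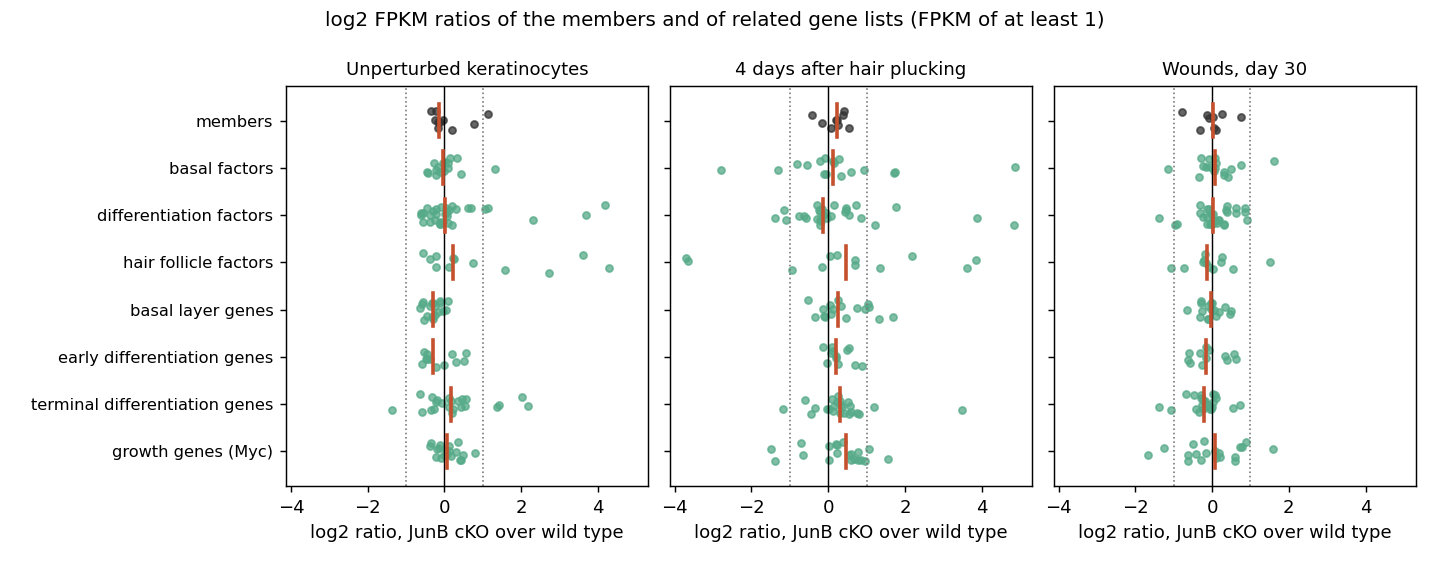
log2 FPKM ratio of JunB cKO over WT for the members and for each gene of 7 related lists with at least 1 FPKM in either genotype, 1 point per gene, shifted at random along the vertical axis, with a red bar at the median and dotted lines at 2-fold. Points are genes and not replicates, and those of genes listed at 0 in a genotype depend on the 0.1 FPKM added; the members span -0.78 to 1.15, whereas single genes of the lists reach beyond 2-fold in every comparison.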

How the data were processed

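The deposited tables hold FPKM values per gene locus, calculated by the authors with Cufflinks 2.2.1 and Cuffdiff on mm10 (GRCm38) from trimmed single-end stranded reads of rRNA-depleted RNA, aligned with TopHat 2.1.0 and HISAT2. Values are 1 per genotype, and how the 2 wound libraries of a genotype were combined is not given in the sources used here. Depth was estimated from the steps of whole reads in sensory receptor genes of 880 to 1000 bases, where 87.1% (wound WT) to 100% of values lay within 0.15 of a whole read, on as few as 4 loci in plucked WT. Member reads were estimated from FPKM and the longest coding transcript of GENCODE M21. The 95% intervals are exact Clopper-Pearson intervals of these estimated reads and cover counting error only, since pooled animals, libraries and duplicate reads are not in them.

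The deposited tables also hold a log2 fold change, a test statistic, a p-value, a q-value and a column of significance by the authors, none of which was used. The condition of the plucking and wound tables was taken from their names, and the genotype from the names within the tables. Where a symbol had several loci, that with the highest FPKM total was taken, and log2((cKO + 0.1)/(WT + 0.1)) calculated, which understates ratios of low genes. Counts past 2-fold were read beside all genes with at least 1 FPKM in either genotype and, where stated, those with at least 10 FPKM. Positions are 1-based on GRCm38, from GENCODE M21. All 10 members are named. Of the related lists, at most the 3 highest and 3 lowest genes past 2-fold were named, together with paralogs and markers chosen after their values were seen. One gene that this rule names is not reported here. The members and lists were chosen with earlier results of these data known. The scripts (Python 3.11.15, pandas 2.3.3, numpy 2.4.6, scipy 1.17.1, matplotlib 3.10.9) were tested on simulated data.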

Additional observations from a re-analysis of the deposited data

Results flagged for a closer look

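With the values as deposited, the difference between genotypes changed sign over the 3 conditions in 8 of the 9 members with their own locus throughout. The share of all genes that did so was not calculated, so the count is not read as particular to the members. In unperturbed samples the median log2 ratio of all genes with at least 10 FPKM was -0.24. For the 8 members that changed sign, the highest minus the lowest log2 ratio over the 3 comparisons was 1.54 for Prdm1, 0.93 for Myc, 0.69 for Grhl3, 0.57 for Klf4, 0.47 for Ovol1, 0.44 for Zfp750, 0.35 for Tfap2a and 0.32 for Trp63. Dlx3, not in this ranking, was higher in cKO throughout, with log2 ratios of 1.15 in unperturbed samples, 0.21 after plucking and 0.02 in wounds. Centred on epithelial structural genes, 5 genes still had ratios of both signs (Klf4, Grhl3, Ovol1, Prdm1 and Tfap2a), whereas Trp63, Myc and Zfp750 were positive in all 3 comparisons. The one negative ratio of Zfp750 (counting interval -0.12 to 0.07) and that of Tfap2a (-0.34 to 0.01) had intervals that held 0. With 1 value per genotype in each table, these differences between conditions were not tested, and the condition and the kind of sample cannot be told apart.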

How the results depend on the processing

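Pseudocounts of 0.01 and 1 FPKM, FPKM summed over loci, a minimum of 10 FPKM and subtraction of the receptor median (added after the data were seen) moved 0 member ratios beyond the counting interval and turned the sign of none. Centring on the median of genes expressed in both genotypes moved 7 of 28 ratios and turned 3 signs (Gata3, Grhl3 and Zfp750 in unperturbed samples), with a member median of 0.033 there. Centring on epithelial structural genes moved 16 of 28 and turned 7 signs, those of Trp63, Grhl3, Ovol1, Gata3, Myc and Zfp750 in unperturbed samples and of Trp63 in wounds. It gave member medians of 0.15 in unperturbed samples, with 2 members at least 2-fold higher (Dlx3 and Prdm1), and of 0.14 in wounds. At 1.5-fold 2 members were higher in unperturbed samples, and 1 higher and 1 lower in wounds. Without a minimum, 37.8% of all genes were at least 2-fold higher in unperturbed cKO. No paired analysis was possible because each table holds 1 value per genotype, and for the same reason no replicate could be left out.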
